A study of Homo sapiens with 24 samples.

Results

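The mRNAs of the translation elongation factors and of other well-known TOP genes were followed through a proximity labelling experiment on stress granules and processing bodies. The members were taken by name: the elongation factor genes EEF1A1, EEF1B2, EEF1D, EEF1G and EEF2, and PABPC1, TPT1, NACA, BTF3 and NPM1, which makes 10 of the 57992 genes counted. Of these, 9 passed the filter on low counts and were tested among 14360 genes, and EEF1G had no count in any of the 24 libraries. RNA was sequenced from HEK293T cells, a human embryonic kidney line with the SV40 large T antigen, that stably expressed TIA1-miniSOG, G3BP2-miniSOG or miniSOG-DDX6. miniSOG is a small flavoprotein that makes singlet oxygen in blue light. Oxidised bases near it react with the probe propargylamine, and a click reaction then adds biotin for capture on streptavidin.

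TIA1 and G3BP2 are RNA-binding proteins of stress granules, and DDX6 is a helicase of processing bodies. The groups were TIA1, G3BP2 and DDX6 cells kept in 0.5 mM sodium arsenite, 1 hr in all, and DDX6 cells labelled without arsenite. Cells of every group carry a bait fusion, and the protocol lights them with blue light at 24 mW/cm2 for 15 min. In each of the 4 combinations there were 2 labelled captures, 2 no-probe captures, from cells given no propargylamine,, and 2 inputs, which are labelled RNA kept back before the beads. Each bait is its own stable line, so bait and line cannot be told apart, and the labels do not say whether a line is a clone. Whether the replicates come from different cultures is not given, so p-values measure only the spread between these samples, which may be technical.

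TOP mRNAs begin, right at the cap, with a cytosine followed by a run of pyrimidines, the terminal oligopyrimidine (TOP) motif. They encode ribosomal proteins, elongation factors and some other proteins of translation, and their translation falls together when the kinase mTOR is inhibited. LARP1 binds the cap and the motif and holds such mRNAs in a stable, untranslated form, and TIA1 and its relative TIAL1 have also been described as binding them in starved cells. Since stress granules and processing bodies collect untranslated mRNA, this class is often asked about in studies of both.

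The annotated starts of the members are shown because the motif lies there. Promoter sequences came from RefSeq (GRCh38.p14), in which 8 of the 10 members matched, and each line gives 10 bases before the annotated start and 20 from it on, with the first pyrimidine run at or after the start in capitals.
EEF1A1 (chr6:73521013-73521042, minus strand): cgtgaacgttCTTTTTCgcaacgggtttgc
EEF2 (chr19:3985444-3985473, minus strand): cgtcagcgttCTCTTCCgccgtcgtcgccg
EEF1B2 (chr2:206159885-206159914, plus strand): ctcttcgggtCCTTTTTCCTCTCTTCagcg
EEF1G (chr11:62573872-62573901, minus strand): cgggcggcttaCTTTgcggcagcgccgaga
NACA (chr12:56725280-56725309, minus strand): ctcgctcggtCTTTCTgccgccatcttggt
BTF3 (chr5:73498432-73498461, plus strand): cttccggcctCCCTTTagctgccatcttgc
TPT1 (chr13:45341164-45341193, minus strand): ctgagtcggcCTTTTCCgcccgctcccccc
NPM1 (chr5:171387839-171387868, plus strand): agcctgcgtcCTTTCCCTggtgtgattccg

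A start was called TOP-like when its first base is C and at least 4 pyrimidines follow, read on the strand of the gene only. By this rule 7 of the 8 matched members (87.5%) had a TOP-like start, with pyrimidine runs of 6 to 16 bases, the longest in EEF1B2. EEF1G did not meet it, because its annotated start is an A, and the CTTT just after that A is also too short for the rule. The rule was met by 5.14% of the 27305 genes with a RefSeq promoter, by 6.37% of the 14860 matched protein-coding genes, and by 73.4% of the 64 matched ribosomal protein genes. EEF1B2 and NPM1 each have a further annotated start that did not meet it, and which start these cells use was not measured.

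The members lie on several chromosomes. On GRCh38 with GENCODE 29, EEF1A1 spans chr6:73515750-73523797, EEF2 chr19:3976056-3985469, EEF1B2 chr2:206159585-206162928 and EEF1G chr11:62559601-62574086. NACA spans chr12:56712428-56731628, BTF3 chr5:73498408-73505635, TPT1 chr13:45333471-45341370 and NPM1 chr5:171387116-171411137, and EEF1D and PABPC1 are on chromosome 8. All 10 are protein-coding genes, and values are sums over their exons, UTRs included.

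Library depth ran from 3344960 to 5919467 counts in labelled captures, from 1129510 to 3472565 in no-probe captures and from 2511043 to 3825961 in inputs. Replicates correlated across genes with r between 0.926 and 0.989 on log2 CPM, where CPM stands for counts relative to library size, lowest in the no-probe captures with G3BP2. Each bait gene was highest in the input of its own line, with TIA1 at a mean of 355 CPM, G3BP2 at 454 CPM, and DDX6 at 1110 CPM with arsenite and 1130 CPM without. Of the lineage markers looked at, PTPRC of blood was at 0 in every input and ALB of hepatocytes was at 0.32 CPM or less. As group means of inputs, NEFM, reported in HEK293 cells, was at 53.8 to 81.9 CPM and COL1A1 of fibroblasts at 14.5 to 24.2 CPM. PAX2 of the kidney lineage was at 5.07 to 10.9 CPM and EPCAM of epithelium at 0 to 1.41 CPM. Genes of the mitochondrial genome took 1.79% to 7.54% of counts in labelled captures as group means, against 24.06% to 31.36% in inputs.

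Comparisons are given as log2 differences ± SE from edgeR's quasi-likelihood model of all 24 libraries: enrichment sets labelled captures against inputs, and probe dependence sets them against no-probe captures. A gene was called at an adjusted p under 0.05, with Benjamini-Hochberg adjustment over all 14360 genes. Levels are CPM after TMM scaling (trimmed mean of M values). These are averages over whole cultures, in which fewer labelled cells and less labelled RNA per cell cannot be told apart.

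Relative to the middle of all genes, some members were lower in the captures of the stress granule baits than in their inputs, and NACA, BTF3 and TPT1 were so with both. With TIA1, 5 of 9 members were lower in labelled captures than in inputs and none was higher, where 16.4% of all tested genes were called lower and 19.4% higher. The 5 were EEF1B2, EEF2, NACA, BTF3 and TPT1. With G3BP2, 3 of 9 were lower, namely NACA, BTF3 and TPT1, and none was higher, where 17.5% of all tested genes were lower and 20.8% higher. With DDX6 under arsenite 1 of 9, EEF1A1, was higher and none was lower, beside 20.4% and 17.3% of all tested genes. With DDX6 without arsenite no member was called, beside 22.9% of tested genes higher and 19.6% lower.

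The median log2 enrichment of the 9 members was -0.63 with TIA1, -0.61 with G3BP2, -0.04 with DDX6 under arsenite and -0.01 with DDX6 without it. The median of all tested genes was 0.02, -0.01, -0.03 and 0.01 in the same 4 combinations. TMM sets that middle near 0. When libraries were scaled by total counts instead, the median of all tested genes moved up by 0.65 with TIA1, 0.53 with G3BP2, 0.54 with DDX6 under arsenite and 0.46 with DDX6 without it, and the calls for members became 2 higher and 1 lower, 2 higher and 2 lower, 6 higher and 5 higher. Of all calls in those scaled fits 92.3%, 86.1%, 87.9% and 83.1% were higher, against 54.3%, 54.3%, 54.1% and 53.8% under TMM. The share of all tested genes called in the scaled fits is not given here. The member counts by total counts can therefore not be read against all genes. Set against the median of all genes, the members' median was -0.65, -0.60, -0.01 and -0.02 by total counts and -0.66, -0.60, -0.01 and -0.02 by TMM. Each direction given here is therefore relative to the middle of all genes, and the part of the mitochondrial counts in this shift was not tested.

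By total counts some of the calls for single members ended or turned. The enrichment of NACA with TIA1 (-0.41), of BTF3 (-0.46) and TPT1 (-0.57) with G3BP2, and of EEF1A1 with DDX6 under arsenite (1.03) kept direction and call (edgeR, adjusted p = 0.0362, 0.0198, 0.00707 and 1.05e-06). The enrichments of EEF1B2 (-1.35), EEF2 (-0.21) and BTF3 (-0.31) with TIA1 and of NACA with G3BP2 (-0.27) kept direction but not the call (edgeR, adjusted p = 0.064, 0.314, 0.117 and 0.173), and TPT1 with TIA1 stood at 0.02 (edgeR, adjusted p = 0.925). The probe dependences of EEF2 (-0.28), NACA (-0.22) and BTF3 (-0.18) with TIA1 and of NACA (-0.21) and BTF3 (-0.18) with G3BP2 also lost the call (edgeR, adjusted p of 0.157 to 0.391), while that of EEF1A1 with TIA1 turned to 0.39 (edgeR, adjusted p = 0.0258) and that of TPT1 to 0.30 (edgeR, adjusted p = 0.154).

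**Figure D1:**
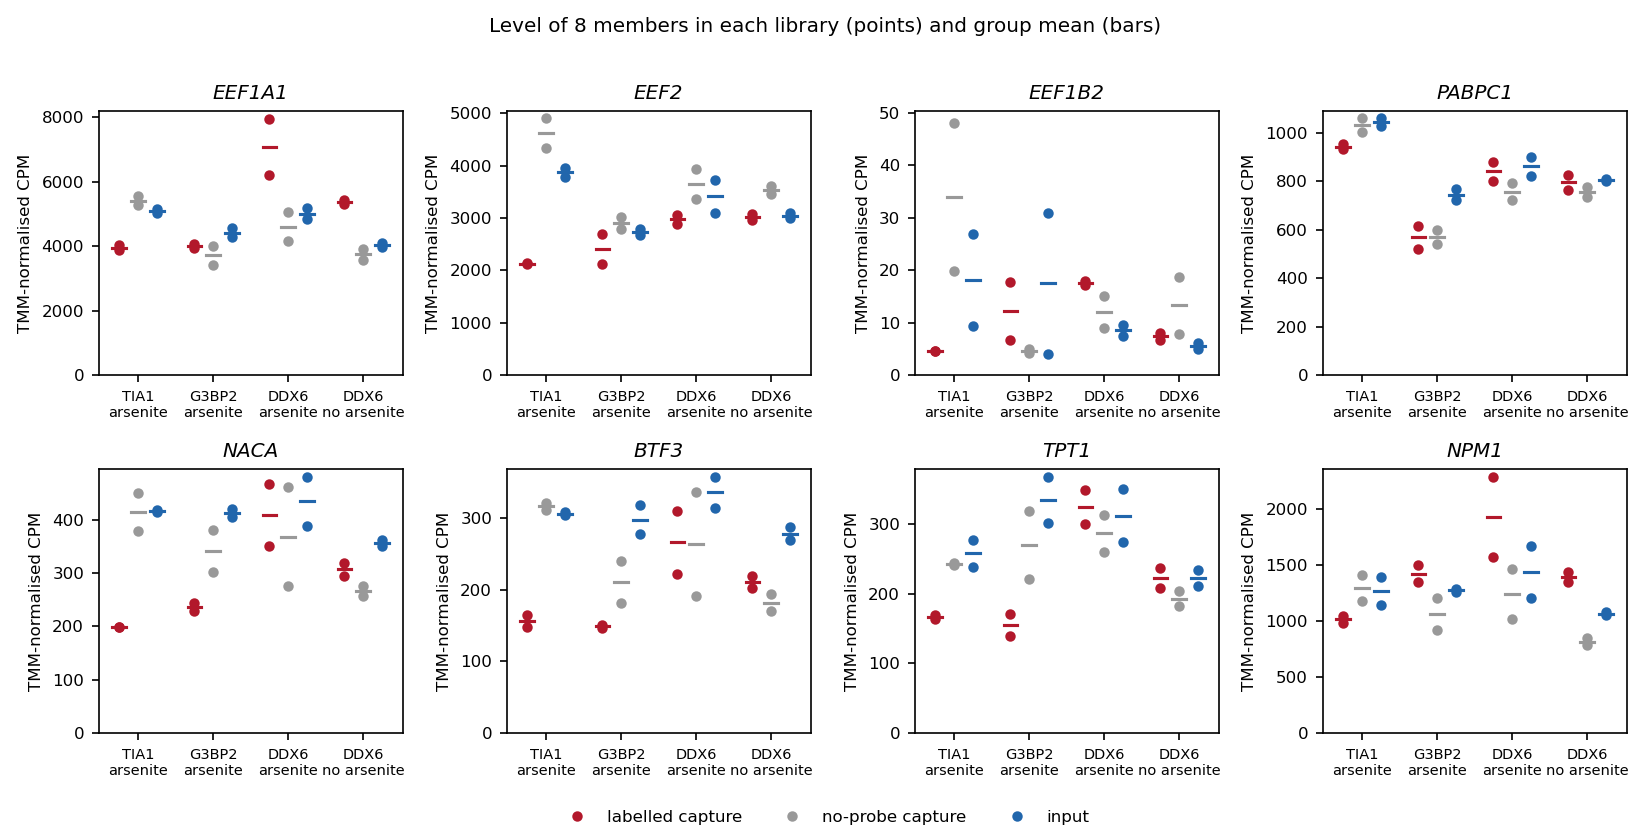
TMM-normalised CPM (vertical axis, from 0) of 8 members in each of the 24 libraries (points) with group means (bars), for labelled captures, no-probe captures and inputs of each bait and treatment. On this TMM scale labelled captures with TIA1 lie below inputs for every gene shown, though EEF1A1, PABPC1, TPT1 and NPM1 turn by total counts, whereas those with DDX6 lie above inputs for EEF1A1.

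EEF1A1 encodes the GTPase that brings aminoacyl-tRNA to the ribosome, and it was the only member called higher in a labelled capture than in an input. With DDX6 under arsenite it had 6194 and 7961 CPM in labelled captures, 4146 and 5069 CPM in no-probe captures, and 4851 and 5176 CPM in inputs. Both labelled captures were above all 4 other libraries. Its enrichment was 0.50 ± 0.19 (edgeR, adjusted p = 0.0352) and its probe dependence 0.62 ± 0.19 (edgeR, adjusted p = 0.00841). Both calls rest on single libraries: the enrichment was 0.36 without labelled capture replicate 2 (adjusted p = 0.211), 0.47 without input replicate 1 (adjusted p = 0.155) and 0.59 without input replicate 2 (adjusted p = 0.0568), and the probe dependence was 0.48 without labelled capture replicate 2 (adjusted p = 0.0773).

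Without arsenite, EEF1A1 in the DDX6 line had 5305 and 5445 CPM in labelled captures, 3585 and 3922 CPM in no-probe captures, and 3988 and 4095 CPM in inputs. The labelled captures were again above all the others. The enrichment of 0.41 ± 0.19 missed the threshold (edgeR, adjusted p = 0.0745), while the probe dependence of 0.52 ± 0.19 passed it (edgeR, adjusted p = 0.0225), though not without labelled capture replicate 2 (0.55, adjusted p = 0.0521) or no-probe capture replicate 1 (0.50, adjusted p = 0.0826).

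On the TMM scale the order of EEF1A1 with TIA1 was the opposite. It had 4022 and 3867 CPM in labelled captures, 5276 and 5545 CPM in no-probe captures, and 5043 and 5139 CPM in inputs. Both labelled captures were below the rest on that scale, while by total counts its enrichment and probe dependence turned to above 0. The enrichment of -0.37 ± 0.19 was not past the threshold (edgeR, adjusted p = 0.126). The probe dependence of -0.46 ± 0.19 was just past it (edgeR, adjusted p = 0.0454), and no longer when any 1 of its 4 libraries was left out, with values of -0.38 to -0.47 and adjusted p of 0.113 to 0.213. With G3BP2 the levels were 4065 and 3956 CPM in labelled captures, 4020 and 3413 CPM in no-probe captures, and 4276 and 4566 CPM in inputs, and neither comparison was called (-0.14 ± 0.19, edgeR adjusted p = 0.583, and 0.11 ± 0.19, edgeR adjusted p = 0.658).

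EEF2, the GTPase that drives translocation of the ribosome along the mRNA, was lower in TIA1 captures. It had 2136 and 2115 CPM in labelled captures, 4899 and 4328 CPM in no-probe captures, and 3953 and 3783 CPM in inputs. No labelled capture came near the other libraries. Its enrichment was -0.86 ± 0.18 (edgeR, adjusted p = 0.000385) and its probe dependence -1.12 ± 0.18 (edgeR, adjusted p = 9.49e-06), and both calls held when any 1 library was left out.

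In the other combinations the groups of EEF2 stood closer. With G3BP2 it had 2129 and 2695 CPM in labelled captures, against 2670 and 2796 CPM in inputs, and the groups overlapped. With DDX6 it had 3061 and 2886 CPM under arsenite and 2967 and 3076 CPM without, against inputs of 3732 and 3095 CPM under arsenite and 3098 and 2994 CPM without. The 3 enrichments were -0.18 ± 0.18, -0.20 ± 0.18 and -0.01 ± 0.18, none of which was called (edgeR, adjusted p = 0.457, 0.404 and 0.968).

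EEF1B2, EEF1D and EEF1G encode subunits of the complex that exchanges GDP for GTP on EEF1A1, and all were counted poorly. EEF1B2 had 6 to 105 counts per library and 1001 in all, and its replicates differed by up to 7.54-fold, in the G3BP2 inputs with 30.99 and 4.111 CPM. With TIA1 it had 4.576 and 4.634 CPM in labelled captures, 19.86 and 48.1 CPM in no-probe captures, and 26.89 and 9.42 CPM in inputs. The labelled captures lay below the others, whose own replicates were far apart. The enrichment was -1.99 ± 0.57 (edgeR, adjusted p = 0.0063) and the probe dependence -2.89 ± 0.53 (edgeR, adjusted p = 4.83e-05). Without input replicate 1 the enrichment was -0.995 and no longer called (adjusted p = 0.391).

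With DDX6 the labelled captures of EEF1B2 had 17.1 and 17.93 CPM under arsenite and 8.01 and 6.751 CPM without, against inputs of 9.556 and 7.508 CPM under arsenite and 5.055 and 6.081 CPM without. The labelled captures were above the inputs in both treatments, with enrichments of 1.04 ± 0.54 (edgeR, adjusted p = 0.129) and 0.41 ± 0.60 (edgeR, adjusted p = 0.611) that were not called. With G3BP2 the enrichment of -0.61 ± 0.49 was not called (edgeR, adjusted p = 0.338). It turned with the inputs, at 1.57 without input replicate 1 (adjusted p = 0.0953) and -1.34 without input replicate 2 (adjusted p = 0.0242).

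For EEF1B2 the counts of 8 annotated pseudogenes (2138) exceeded those of the gene itself, at 68.1% of the sum. Pseudogenes were taken by name only (the gene symbol, P and a number), so copies with other names are not included. Such copies share reads with the parent gene, and how reads with several places were counted is not stated, so values of EEF1B2 are uncertain. The copy with most counts, EEF1B2P3 (1830 counts), was also lower in TIA1 captures, with a mean of 11.9 CPM in labelled captures, 30.5 CPM in no-probe captures and 27.7 CPM in inputs. Its enrichment was -1.21 ± 0.22 (edgeR, adjusted p = 4.98e-05). With the counts of all copies added, EEF1B2 had an enrichment with TIA1 of -1.44 ± 0.25 (edgeR, adjusted p = 3.73e-05) and a probe dependence of -1.88 ± 0.25 (edgeR, adjusted p = 3.06e-07).

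EEF1D had 1 to 23 counts per library, and its pseudogenes held 49.9% of the joint counts. Of its exons 34% overlap genes on the opposite strand, and the library kit named in the labels does not keep the strand. Its enrichments ran from -1.11 ± 0.57 with G3BP2 to 1.88 ± 0.86 with TIA1 and none was called (edgeR, adjusted p of 0.0893 to 0.568). A gene at this depth can show only a very large difference. With pseudogene counts added the enrichment of EEF1D was 0.175 ± 0.465 with TIA1 (edgeR, adjusted p = 0.802). With G3BP2 it was then -1.067 ± 0.431 and just called lower (edgeR, adjusted p = 0.0493), while those with DDX6 were not called. EEF1G was at 0 counts in all 24 libraries, which with a limit of 3 counts allows 0.401 to 2.5 CPM of counted reads per library, counting error only. Its exons are 99.9% covered on the same strand by the annotated gene AP002990.1, which had 1 to 16 counts per library and 155 in all. Reads that fall on both genes may not have been assigned to either, so the 0 may come from the counting and the limit does not bound the expression of EEF1G.

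PABPC1 is the cytoplasmic poly(A)-binding protein that coats mRNA tails and is itself made from a TOP mRNA. On the TMM scale it differed from its inputs by less than the test could call. By total counts it was called higher than inputs with TIA1 and with DDX6 in both treatments. It had 931.7 and 954 CPM in labelled captures with TIA1, against 1062 and 1029 CPM in inputs. With G3BP2 it had 522.3 and 615.1 CPM in labelled captures, against 720.7 and 768.3 CPM in inputs. With DDX6 it had 880.8 and 799.7 CPM under arsenite and 827.3 and 764.7 CPM without, against inputs of 900.5 and 822.9 CPM under arsenite and 810.2 and 799.5 CPM without. The lowest enrichment was -0.39 ± 0.16 with G3BP2 (edgeR, adjusted p = 0.0534), just short of the threshold. The other 3 were -0.15 to -0.02 (edgeR, adjusted p of 0.5 to 0.947).

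NACA and BTF3 encode the alpha and beta subunits of the nascent polypeptide-associated complex, which binds growing chains at the ribosome exit, and both were lower in the captures of both stress granule baits. With TIA1, NACA had 199.4 and 198.3 CPM in labelled captures, 379.5 and 449.1 CPM in no-probe captures, and 413.9 and 417.4 CPM in inputs. With G3BP2 it had 244.6 and 227.8 CPM in labelled captures, 381.2 and 302.1 CPM in no-probe captures, and 405.2 and 419.7 CPM in inputs. In both lines every labelled capture was below every other library. The enrichment of NACA was -1.06 ± 0.19 with TIA1 (edgeR, adjusted p = 5.67e-05) and -0.80 ± 0.19 with G3BP2 (edgeR, adjusted p = 0.00114).

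BTF3 had 147.9 and 165.1 CPM in labelled captures with TIA1, 312.2 and 321.5 CPM in no-probe captures, and 308.1 and 303.9 CPM in inputs. With G3BP2 it had 150.9 and 146.8 CPM in labelled captures, 239.6 and 181.9 CPM in no-probe captures, and 277.9 and 318.2 CPM in inputs. Labelled captures were again the lowest libraries in both lines. The enrichment of BTF3 was -0.97 ± 0.20 with TIA1 (edgeR, adjusted p = 0.000233) and -1.001 ± 0.20 with G3BP2 (edgeR, adjusted p = 0.000138). These 4 enrichment calls of NACA and BTF3 held when any 1 library was left out.

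Against no-probe captures, NACA and BTF3 were lower with TIA1 by similar amounts, -1.06 ± 0.19 (edgeR, adjusted p = 3.72e-05) and -1.02 ± 0.20 (edgeR, adjusted p = 8.23e-05). With G3BP2 the probe dependences were -0.54 ± 0.19 (edgeR, adjusted p = 0.023) and -0.51 ± 0.20 (edgeR, adjusted p = 0.0362). With G3BP2 these calls were lost without labelled capture replicate 1, labelled capture replicate 2 or no-probe capture replicate 1. Without that no-probe capture NACA stood at -0.29 (adjusted p = 0.356) and BTF3 at -0.23 (adjusted p = 0.509).

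In the DDX6 line NACA had 351.1 and 465.8 CPM in labelled captures under arsenite and 318.7 and 294.2 CPM without, against inputs of 388.1 and 480.5 CPM under arsenite and 362.3 and 350.2 CPM without. BTF3 had 222.8 and 310.5 CPM under arsenite and 220 and 201.9 CPM without, against inputs of 313.9 and 358.1 CPM under arsenite and 287.6 and 269.8 CPM without. The groups overlapped for NACA under arsenite, and in the other 3 cases labelled captures were below inputs. No enrichment was called, with -0.09 ± 0.19 and -0.22 ± 0.19 for NACA and -0.34 ± 0.19 and -0.40 ± 0.19 for BTF3 (edgeR, adjusted p of 0.0912 to 0.734). With the replicate number as a block, BTF3 under arsenite stood at -0.355 and was called (edgeR, adjusted p = 0.0447).

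TPT1 encodes the translationally controlled tumour protein, an abundant cytosolic protein, and its mRNA was also lower in the captures of both stress granule baits. With G3BP2 it had 170.8 and 139.2 CPM in labelled captures, 318.4 and 222 CPM in no-probe captures, and 301.3 and 367.9 CPM in inputs. With TIA1 it had 169.3 and 163.3 CPM in labelled captures, 241.6 and 244.5 CPM in no-probe captures, and 238.5 and 278.1 CPM in inputs. Labelled captures were the lowest libraries in both lines.

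With G3BP2 the enrichment of TPT1 was -1.11 ± 0.18 (edgeR, adjusted p = 1.18e-05) and held when any 1 library was left out. Its probe dependence of -0.81 ± 0.18 (edgeR, adjusted p = 0.000531) was -0.45 without no-probe capture replicate 1 and then not called (adjusted p = 0.103). With TIA1 the enrichment was -0.63 ± 0.18 (edgeR, adjusted p = 0.00591), and -0.48 without input replicate 2, then not called (adjusted p = 0.133). The probe dependence with TIA1 was -0.55 ± 0.18 (edgeR, adjusted p = 0.0133) and was lost without any 1 of its 4 libraries (-0.50 to -0.56, adjusted p of 0.0595 to 0.0959). With DDX6, labelled captures had 300 and 349.4 CPM under arsenite and 237.4 and 208.4 CPM without, against inputs of 274.5 and 350.6 CPM under arsenite and 234.2 and 210.9 CPM without, which overlapped. The enrichments of TPT1 there were 0.05 ± 0.18 and 0.002 ± 0.18 (edgeR, adjusted p = 0.835 and 0.997).

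NPM1 encodes nucleophosmin, a nucleolar chaperone of ribosome assembly, and its values differed from those of NACA, BTF3 and TPT1. With DDX6 under arsenite it had 1572 and 2280 CPM in labelled captures, 1020 and 1462 CPM in no-probe captures, and 1207 and 1672 CPM in inputs. Without arsenite it had 1441 and 1348 CPM in labelled captures, 783.7 and 846 CPM in no-probe captures, and 1076 and 1052 CPM in inputs. Labelled captures were above no-probe captures in both treatments, and overlapped the inputs under arsenite.

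The probe dependence of NPM1 was 0.63 ± 0.21 with DDX6 under arsenite (edgeR, adjusted p = 0.014) and 0.78 ± 0.21 without it (edgeR, adjusted p = 0.00279). The call under arsenite was lost without labelled capture replicate 2 (0.39, adjusted p = 0.19) or no-probe capture replicate 1 (0.44, adjusted p = 0.122), while the call without arsenite held when any 1 library was left out. The enrichments of 0.42 ± 0.21 and 0.39 ± 0.21 were not called (edgeR, adjusted p = 0.107 and 0.126). With the replicate number as a block, the enrichment under arsenite was 0.41 and was called (edgeR, adjusted p = 0.0159). With TIA1 the enrichment was -0.33 ± 0.21 (edgeR, adjusted p = 0.227) and with G3BP2 it was 0.16 ± 0.21 (edgeR, adjusted p = 0.57).

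**Figure D2:**
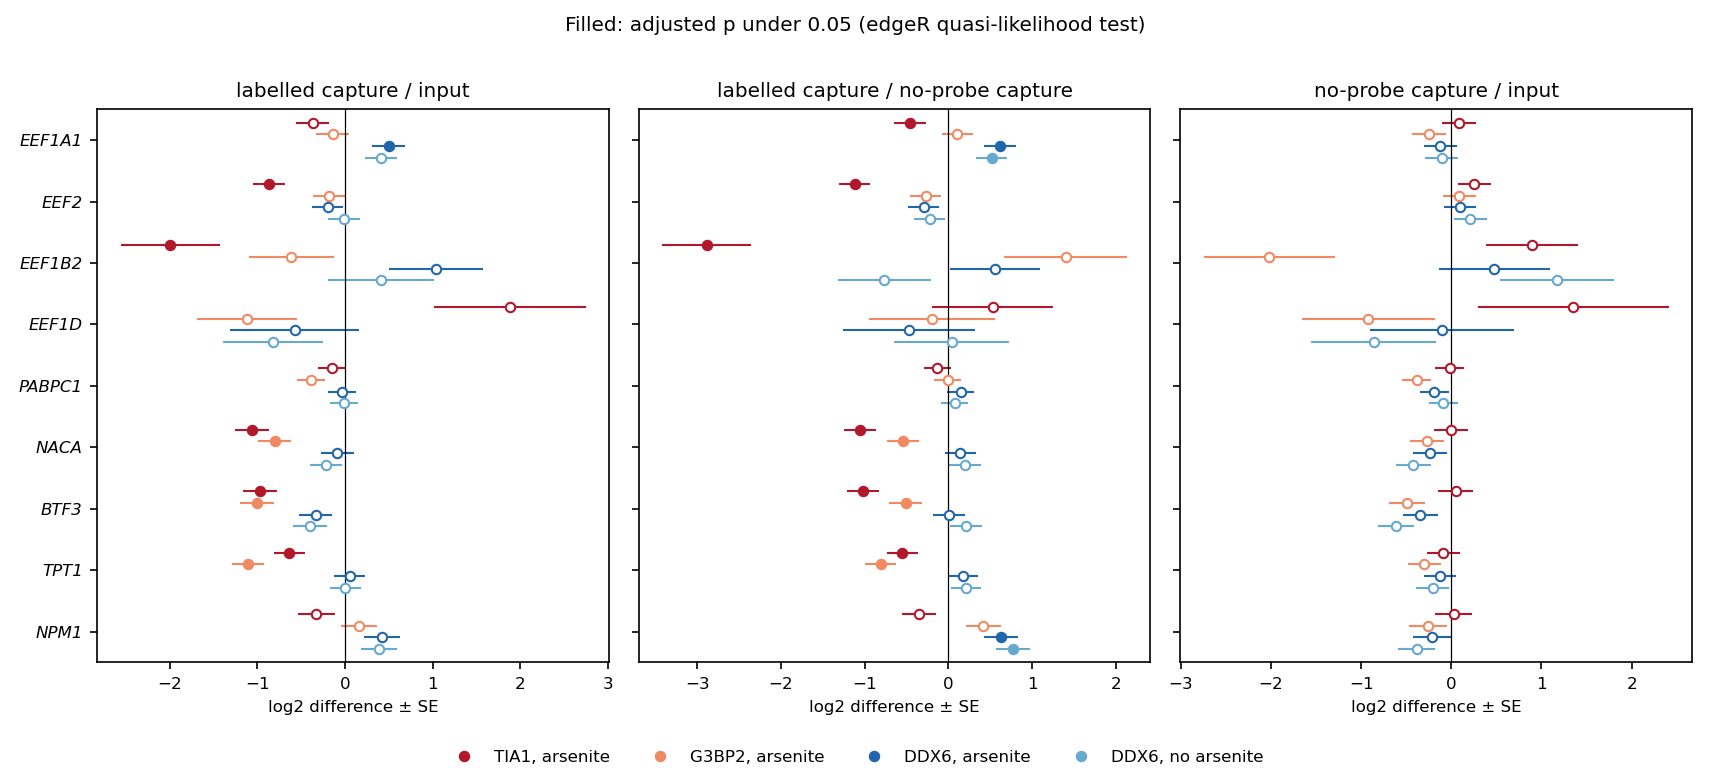
Log2 differences ± SE (horizontal axes) of the 9 tested members for labelled capture over input, labelled capture over no-probe capture, and no-probe capture over input, coloured by bait and treatment; filled points have an adjusted p under 0.05. NACA, BTF3 and TPT1 are filled and below 0, on the TMM scale, for both stress granule baits in the first 2 panels, and the third has no filled point.

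Over the 9 members, 6 were lower in labelled than in no-probe captures with TIA1 and none was higher, where 21.7% of all tested genes were lower and 23.7% higher. With G3BP2, 3 were lower and none was higher, where again 21.7% of tested genes were lower and 23.7% higher. With DDX6 under arsenite 2 were higher and none lower, beside 22.5% and 20.2% of tested genes, and without arsenite the same count was found beside 25.1% and 23.1%. The share of tested genes lower in both comparisons was 14.6% with TIA1, against 5 of 9 members, and 13.4% with G3BP2, against 3 of 9. Of tested genes 17.7% were higher in both with DDX6 under arsenite, against 1 of 9 members, and 19.9% without arsenite, against 0 of 9.

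No-probe captures hold what the beads retain without label. None of the 9 members differed between no-probe captures and inputs in any combination by edgeR, and at an unadjusted p under 0.05 there were 0 with TIA1, 3 with G3BP2, 0 with DDX6 under arsenite and 2 with DDX6 without it. Of the 14360 tested genes 984, 1973, 929 and 1194 had an unadjusted p under 0.05, in the same order. DESeq2 also called no member. Few genes were called in these comparisons at all: 0.0139% of tested genes with TIA1, 0.167% with G3BP2, 0% with DDX6 under arsenite and 0.0139% with DDX6 without it. The members' median was 0.05, -0.30, -0.12 and -0.21 in that order, so with G3BP2 and DDX6 it lay below the inputs already without the probe.

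Transcript length differs between the members. The median annotated transcript is 880 bases for EEF1B2, 1054.5 for TPT1, 1067 for BTF3, 1074 for NACA, 1311 for EEF1D, 1468 for NPM1, 2366 for PABPC1, 3164 for EEF2 and 3447 for EEF1A1. Other measures order them differently, since all exons of NACA and of TPT1 together cover 10008 and 7269 bases. When the trend of the log2 difference on the median transcript length over all tested genes was removed, NACA, BTF3 and TPT1 stood at -0.72, -0.625 and -0.29 with TIA1 and at -0.38, -0.57 and -0.67 with G3BP2. In the probe dependence with G3BP2 they stood at -0.007, 0.025 and -0.27. EEF2 with TIA1 moved away from 0 by this step, to -1.005. These adjusted values carry no test, and the part of length in the result was not tested.

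The difference between baits was tested as the difference of 2 enrichments, both under arsenite. DDX6 against TIA1 gave 8 of 9 members above 0 with a median of 0.69, and 2 were called higher and none lower, where 0.843% of tested genes were higher and 1.51% lower. NACA differed by 0.97 ± 0.27 (edgeR, adjusted p = 0.0449) and EEF1B2 by 3.03 ± 0.78 (edgeR, adjusted p = 0.0324). EEF1A1 came next with 0.87 ± 0.26 (edgeR, adjusted p = 0.0732). With the replicate number as a block 6 of 9 members were called. Besides NACA and EEF1B2 they were EEF1A1 (0.85, edgeR adjusted p = 0.00818), EEF2 (0.665, edgeR adjusted p = 0.0492), TPT1 (0.69, edgeR adjusted p = 0.0323) and NPM1 (0.73, edgeR adjusted p = 0.0195). The share of all tested genes called with the block is not given here, so the shares above do not apply to this count. Same-numbered labelled captures and inputs deviated together over genes with r of 0.168 with TIA1 and 0.389 with DDX6 under arsenite. For NACA the call was lost without any 1 of TIA1 labelled captures 1 and 2, TIA1 inputs 1 and 2, DDX6 labelled capture 2 and DDX6 input 1, at 0.79 to 1.01 and adjusted p of 0.0968 to 0.213.

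For EEF1B2 the call was lost without any 1 of TIA1 labelled captures 1 and 2, TIA1 input 1, DDX6 labelled capture 2 and DDX6 inputs 1 and 2, at 2.06 to 3.19 and adjusted p of 0.0505 to 0.298. With pseudogene counts added EEF1B2 differed by 1.84 ± 0.34 (edgeR, adjusted p = 0.00225). The copies EEF1B2P3 and EEF1A1P5 differed in the same direction, by 1.51 ± 0.29 (edgeR, adjusted p = 0.00341) and 0.91 ± 0.21 (edgeR, adjusted p = 0.0145). Such copies share reads with the members and are not separate evidence.

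DDX6 against G3BP2 also gave 8 of 9 members above 0, with a median of 0.64. No member was called by edgeR, where 0.0487% of tested genes were. An unadjusted p under 0.05 was found for 5 of 9 members and for 1580 of the 14360 tested genes. DESeq2 called 2 members and 81 of the tested genes. The nearest to the edgeR threshold was TPT1, at 1.16 ± 0.25 (edgeR, adjusted p = 0.064). It passed without DDX6 labelled capture replicate 1 (1.27, adjusted p = 0.0391) or DDX6 input replicate 2 (1.35, adjusted p = 0.0452), and with the replicate number as a block (1.183, adjusted p = 0.00287). TIA1 against G3BP2 gave no member called by edgeR, beside 3.61% of tested genes. An unadjusted p under 0.05 was found there for 2 of 9 members and 2759 tested genes. DESeq2 called 1 member and 558 tested genes. EEF2, called lower with TIA1 and not with G3BP2, differed between these baits by -0.68 ± 0.26 (edgeR, adjusted p = 0.13), so a difference between the baits was not shown. Any pair of these bait contrasts shares the libraries of 1 bait, so they are not independent of each other.

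Arsenite did not separate the members in the DDX6 line at this depth. The difference of enrichments, with arsenite minus without, ran from -0.19 for EEF2 to 0.63 for EEF1B2 with a median of 0.07. No member was called by edgeR, beside 0.0209% of tested genes, or by DESeq2, beside 3 tested genes. None of the members had an unadjusted p under 0.05, beside 604 of the 14360 tested genes. With SE of 0.23 to 0.29 for the 7 members other than EEF1B2 and EEF1D, only differences well above those could have been seen. In the inputs, 8 of 9 members were above 0 with arsenite minus without, with a median of 0.29. None was called by edgeR, beside 1.15% of tested genes, or by DESeq2, beside 169 tested genes. An unadjusted p under 0.05 was found for 2 of 9 members and 2260 tested genes. With the replicate number as a block TPT1 was called (0.48, edgeR adjusted p = 0.0429).

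Input levels of the members did not pass the test between lines either. None was called by edgeR for TIA1 against G3BP2, beside 4.14% of tested genes. There 4 members and 2753 of the 14360 tested genes had an unadjusted p under 0.05. DESeq2 called 2 members and 559 tested genes. None was called by edgeR for DDX6 against TIA1, beside 0.877% of tested genes, or for DDX6 against G3BP2, beside 0.787%. In both no member had an unadjusted p under 0.05, beside 1765 and 1572 tested genes. DESeq2 called no member in either, beside 137 and 128 tested genes. For EEF2 the TIA1 inputs exceeded the G3BP2 inputs by 0.50 ± 0.18 (edgeR, adjusted p = 0.113), and for PABPC1 by 0.49 ± 0.16 (edgeR, adjusted p = 0.0756).

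**Figure D3:**
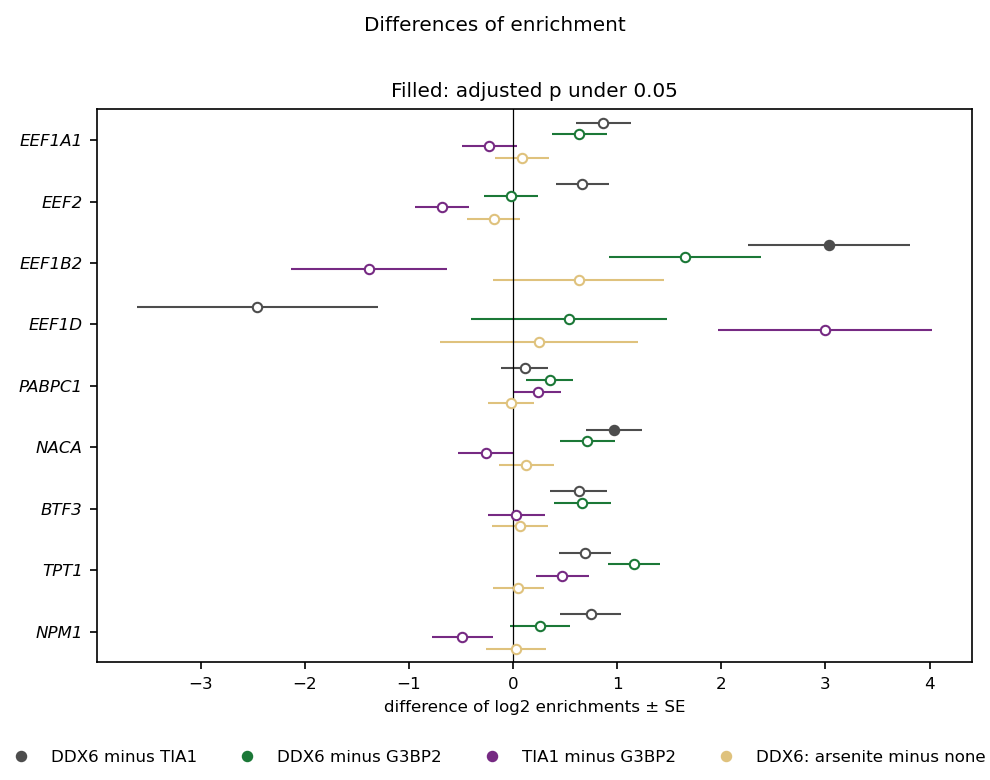
Differences of log2 enrichment ± SE (horizontal axis) for each tested member, for the 3 pairs of baits in stressed cells and for DDX6 with arsenite against without; filled points have an adjusted p under 0.05. The filled points are EEF1B2 and NACA in DDX6 minus TIA1, and EEF1B2 and EEF1D have the widest errors.

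Other TOP mRNAs were read against the members. Relative to the middle of all genes, of 15 other known TOP mRNAs 10 were lower and 1 higher in labelled captures than in inputs with TIA1, 8 lower and 2 higher with G3BP2, and 6 lower and 4 higher with DDX6 in each treatment. Their medians were -1.003, -0.76, -0.34 and -0.32, for TIA1, G3BP2, DDX6 under arsenite and DDX6 without it. IPO7, an import receptor, had the highest mean and was higher in all 4, from 1.00 ± 0.19 with TIA1 (edgeR, adjusted p = 8.2e-05) to 1.53 ± 0.19 with DDX6 under arsenite (edgeR, adjusted p = 2.66e-07).

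The cytosolic ribosomal protein mRNAs, the largest class of TOP mRNAs, lay lower than the members. Of 74 tested, 68 were lower and 0 higher with TIA1, 70 and 0 with G3BP2, 53 and 1 with DDX6 under arsenite, and 60 and 0 without it, with medians of -1.28, -1.31, -0.80 and -0.87. The median with DDX6 was thus below 0 for ribosomal protein mRNAs and near 0 for the members, a description that was not tested. The 672 other tested genes with a TOP-like annotated start had medians between 0.01 and 0.07 in the 4 enrichments, with 143 higher and 144 lower for TIA1. The 9066 genes without such a start had medians between 0.07 and 0.14, with 2090 higher and 1373 lower for TIA1.

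**Figure D4:**
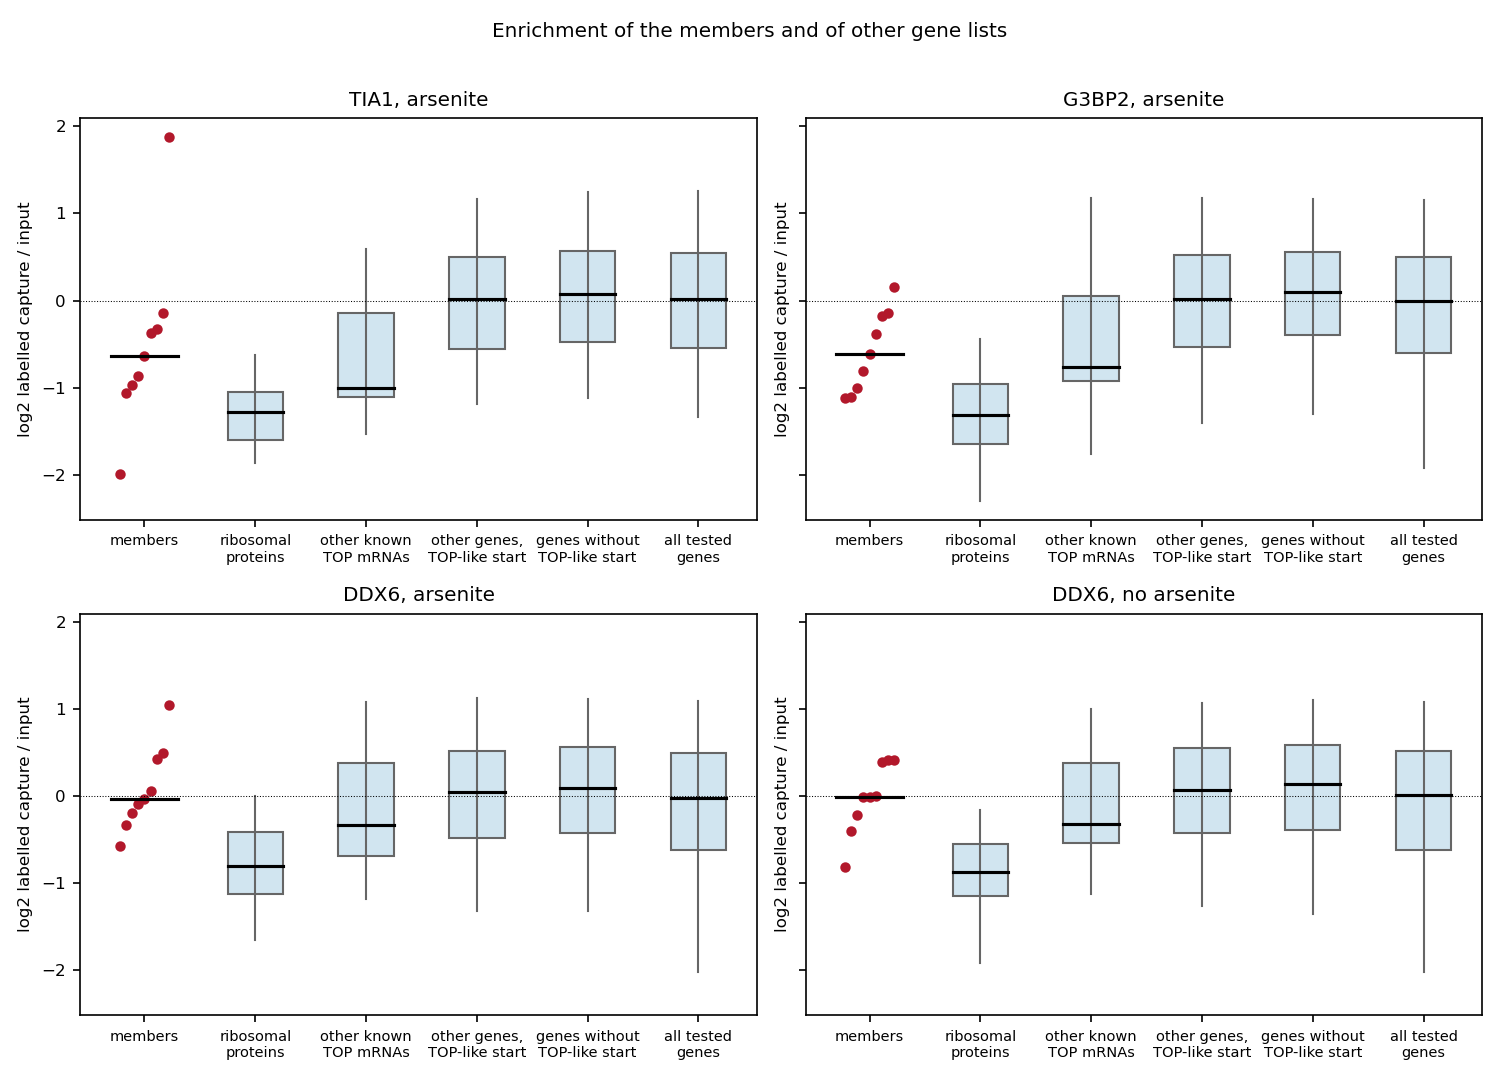
Log2 labelled capture over input (vertical axes) for the 9 tested members (points, with their median as a bar) and, for other lists, the median (bar), quartiles (box) and 5th to 95th percentiles (line), by bait and treatment. Ribosomal protein mRNAs have medians of -1.31 to -0.80, the members of -0.63 to -0.01, and all tested genes lie around 0.

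For genes with related roles the counts are given beside the shares of all tested genes named above, and counts near those shares are no result about a list. Of 12 other cytosolic elongation and termination factors, 2 were higher and 4 lower with TIA1, 3 and 1 with G3BP2, 4 and 3 with DDX6 under arsenite, and 4 and 2 without it. With TIA1 that is 16.7% higher and 33.3% lower, where all tested genes gave 19.4% and 16.4%, and with G3BP2 25% and 8.33%, where all gave 20.8% and 17.5%. The highest mean was that of ETF1, the release factor that reads stop codons, at 0.49 ± 0.19 with TIA1 (edgeR, adjusted p = 0.0379) and 1.28 ± 0.19 with G3BP2 (edgeR, adjusted p = 2.55e-06). The lowest was that of EEF2KMT, which methylates EEF2, at -1.04 ± 0.32 with TIA1 (edgeR, adjusted p = 0.0109). Of 5 mitochondrial elongation factors, 2 were higher and 1 lower with TIA1 and 3 higher and 0 lower in each other combination, with GFM2 at the top and TUFM at the bottom.

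Of 15 regulators of TOP mRNAs and relatives of the poly(A)-binding protein, 4 were higher and 2 lower with TIA1, 5 and 2 with G3BP2, 5 and 3 with DDX6 under arsenite, and 4 and 3 without it. With TIA1 that is 26.7% higher and 13.3% lower, where all tested genes gave 19.4% and 16.4%. PAIP1, a partner of PABPC1, had the highest mean and was higher in all 4, at 0.84 ± 0.16 to 1.09 ± 0.16 (edgeR, adjusted p at most 9.5e-05). PABPC1L had the lowest, from -0.53 ± 0.25 with TIA1 (edgeR, adjusted p = 0.1) to -2.40 ± 0.24 with DDX6 without arsenite (edgeR, adjusted p = 7.91e-09). Of 5 tested relatives of NACA, BTF3 and NPM1, 1 was higher and 0 lower in each combination, or 20%, where 19.4% to 22.9% of all tested genes were higher. BTF3L4, a close relative of BTF3, had the highest mean, and with TIA1 it stood at 1.15 ± 0.18 (edgeR, adjusted p = 7.01e-06) where BTF3 stood at -0.97 ± 0.20 (edgeR, adjusted p = 0.000233). NACAD had the lowest mean, with SE of 0.55 or more.

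The members did not all share the same profile. Over the 12 groups, with log2 CPM centred within each combination, NACA and BTF3 followed the members' median most closely (Pearson r of 0.912 and 0.908), then PABPC1 (0.853), TPT1 (0.813), EEF1A1 (0.619), EEF2 (0.591), EEF1B2 (0.575), NPM1 (0.466) and EEF1D (-0.0826). Among 3462 other protein-coding genes with a mean of at least 50 CPM, the profiles most like that median were those of SEC31A (0.945), RPL21 (0.945), TMEM131 (0.944), GARS (0.925) and PSMB1 (0.917). These r values describe 12 group means that share libraries and carry no test. Each member is itself part of the median, which raises its r, so members and other genes are not compared on equal terms.

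Pseudogenes taken by name were a small part of the counts for the other members that had many. The 39 annotated copies of EEF1A1 held 17548 counts (4.08% of the sum with the gene), mostly EEF1A1P5 with 15063, and the 45 of NPM1 held 5492 (4.61%), mostly NPM1P27 with 4259. For PABPC1, TPT1, NACA, BTF3 and EEF2 the share was at most 0.445%. With these counts added to the genes, EEF1A1 had enrichments of -0.37 ± 0.19 with TIA1 (edgeR, adjusted p = 0.124) and 0.49 ± 0.19 with DDX6 under arsenite (edgeR, adjusted p = 0.0363).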

How the data were processed

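The deposited table holds raw counts per gene, 1 column for each of 24 libraries, with Ensembl release 87 identifiers per the file headers. Per the submitters' processing notes, the tools were cutadapt 1.18, FastQC 0.11.8, HISAT2 2.1.0, SAMtools and HTSeq 0.7.2, on GRCh38. Whether counting used strand, and what became of multi-mapping reads, is not given in the sources used here. Groups follow the labels. Members and gene lists were chosen with earlier results of these data known.

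Of 57992 genes, 57388 matched GENCODE 29, which gave symbols, positions and exon lengths, and 39646 had a count. In R 4.3.3 with edgeR 4.0.16, filterByExpr left 14360 genes, libraries were scaled by TMM, and all 24 libraries entered a quasi-likelihood model with 12 group means (12 residual degrees of freedom, common biological coefficient of variation 12.9%). Contrasts were tested two-sided with the quasi-likelihood F-test, with Benjamini-Hochberg adjustment over all 14360 genes. The SE is the log2 difference divided by the root of F.

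All 10 members are named. Of each other list the genes with the highest and lowest mean enrichment are named, except 1 that is not reported here, of pseudogenes the 3 with most counts, and of like profiles the 5 with the highest r. Alternatives were other scalings, no filter, DESeq2 1.42.0, fewer libraries, a replicate block, pseudogene counts added, a transcript length trend removed, and each library left out. Same-numbered libraries of DDX6 under arsenite deviated together over genes, with r of 0.389 between labelled captures and inputs, 0.26 between labelled captures and no-probe captures, and 0.199 between no-probe captures and inputs, so blocked values stand beside results there where they change a call. Reads carry no molecular identifiers, so intervals and limits from counts cover counting error only.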

Additional observations from a re-analysis of the deposited data

Results flagged for a closer look

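EEF1B2 differed between baits: its log2 enrichment with DDX6 exceeded that with TIA1, both under arsenite, by 3.03 ± 0.78 (edgeR, adjusted p = 0.0324), a call lost when any 1 of 6 of its 8 libraries was left out (adjusted p of 0.0505 to 0.298). Its labelled captures had 17.1 and 17.93 CPM with DDX6 and 4.576 and 4.634 CPM with TIA1, and its inputs 9.556 and 7.508 CPM with DDX6 and 26.89 and 9.42 CPM with TIA1. These levels rest on 19 to 95 counts per library.

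NACA differed in the same contrast by 0.97 ± 0.27 (edgeR, adjusted p = 0.0449), a call also lost without any 1 of 6 of the 8 libraries (adjusted p of 0.0968 to 0.213). Its labelled captures had 351.1 and 465.8 CPM with DDX6 and 199.4 and 198.3 CPM with TIA1, and its inputs 388.1 and 480.5 CPM with DDX6 and 413.9 and 417.4 CPM with TIA1. Groups of 2 libraries are too small for a test of a single outlying library.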

How the results depend on the processing

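Numbers of members called are given in this section, out of 9. The number of all tested genes called in each setting is not given, except for DESeq2 in some contrasts above. Counts without it can therefore not be read against all genes, and a change in any of these counts is no result about the members. Scaling by RLE size factors gave 1 call for DDX6 without arsenite, and scaling by total counts gave 3 for enrichment with TIA1, 6 with DDX6 under arsenite and 5 without it, 6 and 5 for probe dependence with DDX6 under arsenite and without, and 1 for DDX6 minus TIA1. With no filter there were 3 enrichment calls with DDX6 under arsenite and 2 without it, 1 for no-probe captures over inputs with G3BP2 and 1 for DDX6 minus G3BP2. The replicate block gave 3 and 3 for enrichment with DDX6 under arsenite and without, 1 for TIA1 minus G3BP2, 6 for DDX6 minus TIA1, 1 for DDX6 minus G3BP2, and 1 and 2 for the inputs of DDX6 with arsenite minus without and of TIA1 minus G3BP2. Outside DDX6 under arsenite, same-numbered libraries correlated in their deviations over genes with r of 0.0588 to 0.168 in TIA1. The r was -0.0235 to 0.0718 in G3BP2 and -0.0326 to 0.00576 in DDX6 without arsenite. The main model took the numbers as pairs in no combination, while the replicate block took them as pairs in every combination. Blocked values outside DDX6 under arsenite therefore also rest on pairs for which these r were low. The 0.168, between TIA1 labelled captures and inputs, is however not far below 0.199, the lowest with DDX6 under arsenite. DESeq2 gave 2 for enrichment with DDX6 without arsenite, 1 for TIA1 minus G3BP2, 2 for DDX6 minus G3BP2 and 2 for the inputs of TIA1 minus G3BP2, and left EEF1B2 for DDX6 minus TIA1 without an adjusted p. With only the libraries of the comparison there were 5 calls for enrichment with G3BP2, 4 with DDX6 without arsenite, 0 for probe dependence with DDX6 under arsenite, 1 for no-probe captures over inputs with DDX6 without arsenite, and 2, 1 and 2 for TIA1 minus G3BP2, DDX6 minus TIA1 and the inputs of TIA1 minus G3BP2. The cause was not tested for any of these.

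Leaving out 1 library gave 0 to 3 calls for DDX6 minus TIA1, 0 to 1 for TIA1 minus G3BP2, for DDX6 minus G3BP2 and for no-probe captures over inputs with DDX6 under arsenite, 0 to 2 for enrichment and 0 to 4 for probe dependence with DDX6 under arsenite, 1 to 3 for probe dependence with G3BP2 and 1 to 2 with DDX6 without arsenite, and 4 for probe dependence with TIA1 each time. With total counts, in which the middle of all genes moves, 3 calls turned direction, TPT1 for enrichment and probe dependence and EEF1A1 for probe dependence, all with TIA1, and 8 values not called before turned and were then called. Enrichment became 0.51 for PABPC1 and 0.024 for TPT1 with TIA1, 0.40 for EEF1A1 with G3BP2, 0.51 for PABPC1 and 0.45 for NACA with DDX6 under arsenite, and 0.45 for EEF2 and 0.45 for PABPC1 without it, and probe dependence with TIA1 became 0.39 for EEF1A1, 0.71 for PABPC1, 0.30 for TPT1 and 0.49 for NPM1. With the transcript length trend removed, the probe dependence of BTF3 with G3BP2 was 0.025. Of 180 values for single members, 142 kept direction and call with total counts, 178 with RLE, 178 with the mitochondrial genome left out, 165 with no filter, 162 with the replicate block and 179 with pseudogene counts added, where a sign change between values not called is not counted. EEF1D has 1 to 23 counts per library and EEF1B2 6 to 105, which limits what their tests can show.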

Other observations

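The 10 members together took 1.111% of all counts in TIA1 labelled captures, against 1.011% in inputs, and 1.164% with G3BP2, against 0.9134% in inputs. With DDX6 they took 1.638% of counts in labelled captures, against 0.9648% in inputs under arsenite, and 1.477%, against 0.9278% in inputs, without arsenite. No-probe captures gave 0.967%, 0.941%, 0.9508% and 1.008% for TIA1, G3BP2, DDX6 under arsenite and DDX6 without it. These are shares of all counts, in which the mitochondrial genome took 7.54% of labelled captures with TIA1 and 31.36% of inputs, and EEF1A1 and EEF2 hold most of the members' counts (413053 and 258501 over the 24 libraries).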
